A study of Mus musculus with 6 samples.

Results

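The 42 genes described here encode parts of the lysosome and of the autophagy machinery. They were taken by symbol from a list of named genes and matched to the 52636 Ensembl genes that each count table lists; all 42 matched, with 21 in a lysosome arm and 21 in an autophagy arm. The lysosome is the acidic compartment in which hydrolases break down protein, lipid and glycan, and its membrane carries the proton pump that acidifies it. In autophagy a double membrane closes around cytoplasm or damaged organelles and then fuses with the lysosome. The transcription factors Tfeb and Tfe3 link both arms, since they switch on many lysosomal and autophagy genes. In salivary acinar cells, which make and store large amounts of secretory protein, autophagy is known for the turnover of granules and organelles.

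The libraries were made with a strand-specific total RNA kit from the parotid salivary gland of mice of the inbred strain FVB, aged 28 days. There were 3 untreated libraries and 3 irradiated ones, the latter from mice given 5 Gy once; the dose is written on all 6 samples and was applied to the irradiated group, and no transgene or other agent is named. Neither the time of collection after irradiation nor whether the libraries are of different animals is stated, so that the p-values reflect library-to-library spread, which may be technical. The tissue is whole gland, so fewer cells of a type and less RNA per cell cannot be told apart.

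Counts in genes ranged from 7108359 in irradiated replicate 2 to 15036193 in untreated replicate 3. Irradiated replicate 2 stood apart, with 10.01% of its reads unaligned (3.75% to 4.33% elsewhere) and 184 reads set aside for low alignment quality (342749 to 491591 elsewhere). The 10 acinar markers took 46.1% to 52.5% of gene counts in every library. Cdkn1a, the p53 target that encodes p21, stood at 2.08 ± 0.222 CPM (counts per 1000000 counts of tested genes, with library sizes scaled by TMM factors) in untreated and 21.9 ± 3.97 CPM in irradiated libraries (SD, n = 3), without overlap.

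The DNA element through which Tfeb and Tfe3 act, known as the CLEAR element, has the core TCACGTGA, which reads the same on both strands. Promoter windows of 300 bases from RefSeq, on the build GRCm38.p6, were found for 34 of the 42 members. Among those, the core stood in 5 of 17 of the lysosome arm, 29.4%, and 1 of 17 of the autophagy arm, 5.88%. Of all 27025 symbols in the promoter table, expressed here or not, 1.12% held it. Tfeb and Tfe3 are known to act on lysosomal genes through this element, so a surplus there was likely beforehand and tests nothing. The 6 sites are shown because they mark the members with a textbook Tfeb element, each in 30 bases from 5′ to 3′ with the core in capitals.
Ctsa: tgTCACGTGAtgcagatgcTCACGTGAcca
Ctsd: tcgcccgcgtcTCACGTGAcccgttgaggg
Mcoln1: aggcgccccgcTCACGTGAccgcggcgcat
Atp6v0d1: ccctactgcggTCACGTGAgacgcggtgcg
Atp6v1a: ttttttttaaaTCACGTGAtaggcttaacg
Atg3: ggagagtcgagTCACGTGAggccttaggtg
The Ctsa stretch, which holds the core at 2 places, lies at chr2:164833758-164833787 on the plus strand. The Ctsd stretch lies at chr7:142387908-142387937 on the minus strand and that of Mcoln1 at chr8:3500462-3500491 on the plus strand. The stretch of Atp6v0d1 lies at chr8:105566050-105566079 and that of Atp6v1a at chr16:44139373-44139402, both on the minus strand, and that of Atg3 at chr16:45158746-45158775 on the plus strand. The core lay 4 bases before the RefSeq start in Atp6v0d1, 46 in Mcoln1, 72 in Atg3, 99 in Ctsd and 132 in Atp6v1a. In Ctsa the first of the 2 cores lay 13 bases before the start, and the second did not lie wholly before it. Since GENCODE places the gene's outer end further upstream in some of them, the stretches of Ctsa, Ctsd, Mcoln1 and Atp6v1a lie inside the annotated gene, and those of Atp6v0d1 and Atg3 outside it.

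The shorter E-box CACGTG, which lies inside the CLEAR core and was therefore counted at all of these sites too, stood in 9 of 17 lysosome promoters and 5 of 17 autophagy promoters, against 8.09% of all symbols. The forkhead motif, searched only as the exact letters TGTTTAC and like the others on both strands, stood in 0 of 34, against 4.05% of all symbols. The members differed from all symbols in general promoter motifs too. The GC box GGGCGG stood in 73.5% of the 34 against 38.2%, and the CCAAT box in 20.6% against 41.1%. A match is a description of the letters and not of binding.

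All 42 members passed the filter on low counts. Levels per transcript length (CPM per kb of the principal transcript) spanned from 1.28 ± 0.515 for Atg14, a subunit of the autophagy lipid kinase, to 122.7 ± 7.08 for Psap, the precursor of the saposins that help glycolipid hydrolases, in untreated libraries (SD, n = 3). After Psap came Gabarap at 113.1 ± 9.61, Lamp1 at 103.2 ± 5.49, Ctsd at 90.2 ± 6.98 and Ctsl at 75.1 ± 3.21 CPM per kb. The neighbours among Psap, Gabarap and Lamp1 lay closer than the sum of their SDs, and so did Sqstm1 at 52.3 ± 4.31 and Ctsb at 49.7 ± 2.66, so that their order is uncertain. The plot of levels by transcript length shows members of both arms over most of this range, with Gabarap, Sqstm1 and Map1lc3b the highest of the autophagy arm. The regulators were scarce: Tfe3 stood at 4.62 ± 0.612 and Tfeb at 3.77 ± 0.889 CPM per kb.

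**Figure D1:**
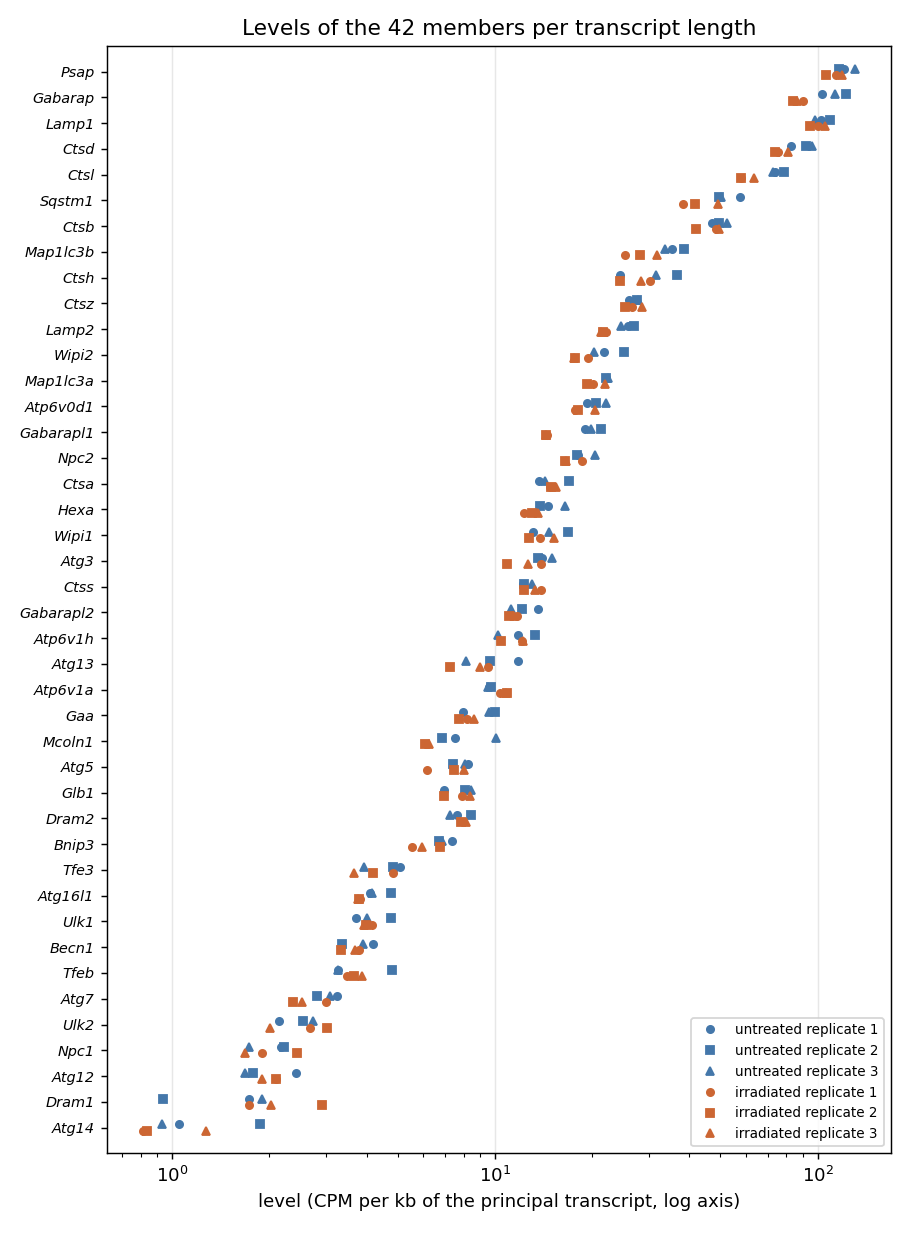
Level of each of the 42 members in every library, in CPM per kb of the principal transcript on a log axis, ordered by the untreated mean; blue marks are untreated and orange marks irradiated libraries, with a shape for each replicate. Psap, Gabarap and Lamp1 stand highest and Dram1 and Atg14 lowest, and for most members the spread between members is far larger than the distance between the groups.

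Irradiated glands were then compared with untreated ones. Of the 42 members 1 fell, Gabarapl1, a member of the GABARAP family that is coupled to lipid on the growing autophagosome; 0 rose and 41 did not pass, at a threshold of 0.05 on the p of edgeR's quasi-likelihood test after adjustment by Benjamini and Hochberg over all 12885 genes tested. The single fall is 2.38% of the members, where 0.349% of all genes fell and 0.652% rose. Negative log2 fold changes were seen for 35 of 42 members, against 50.9% of all genes. At an unadjusted p under 0.05 there were 8 members lower and 0 higher, 19.0% and 0% of the members, against 7.46% and 7.51% of all genes. In 12 members every irradiated library was below every untreated one, 28.6% of them against 10.6% of all genes, and in 1, Atp6v1a, every irradiated library was above, against 10.6%. These counts hold with TMM factors. With library totals alone, a scaling added to this count after seeing the data, 4 members were lower without overlap, Gabarapl1, Gabarap, Map1lc3b and Ctsl, 9.52% against 3.19% of all genes. Under that scaling 3 were higher without overlap, Lamp1, Atp6v1a and Dram2, 7.14% against 18.8% of all genes. The list was chosen with results of these data known, so these shares describe it and test nothing.

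The signs of the small fold changes depend on the scaling too. Groups given as apart, or as lower or higher in each library, are so with TMM factors unless another scaling is named. Scaled by library totals alone, 18 of the 42 members were negative, where 30.4% of all genes were and the median of all genes lay at 0.14 on the log2 scale. The 17 that turned positive were Lamp1, Ctsb, Ctsz, Glb1, Npc1, Npc2, Psap, Tfeb, Tfe3, Atp6v0d1, Atp6v1h, Ulk1, Becn1, Atg5, Map1lc3a, Gabarapl2 and Wipi1. Read against the median of all genes, 35 members lay below it under that scaling and also with TMM factors. Over all settings this count ranged from 29, without untreated replicate 2, to 36. It was 32 with the length and GC correction and without irradiated replicate 2.

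**Figure D2:**
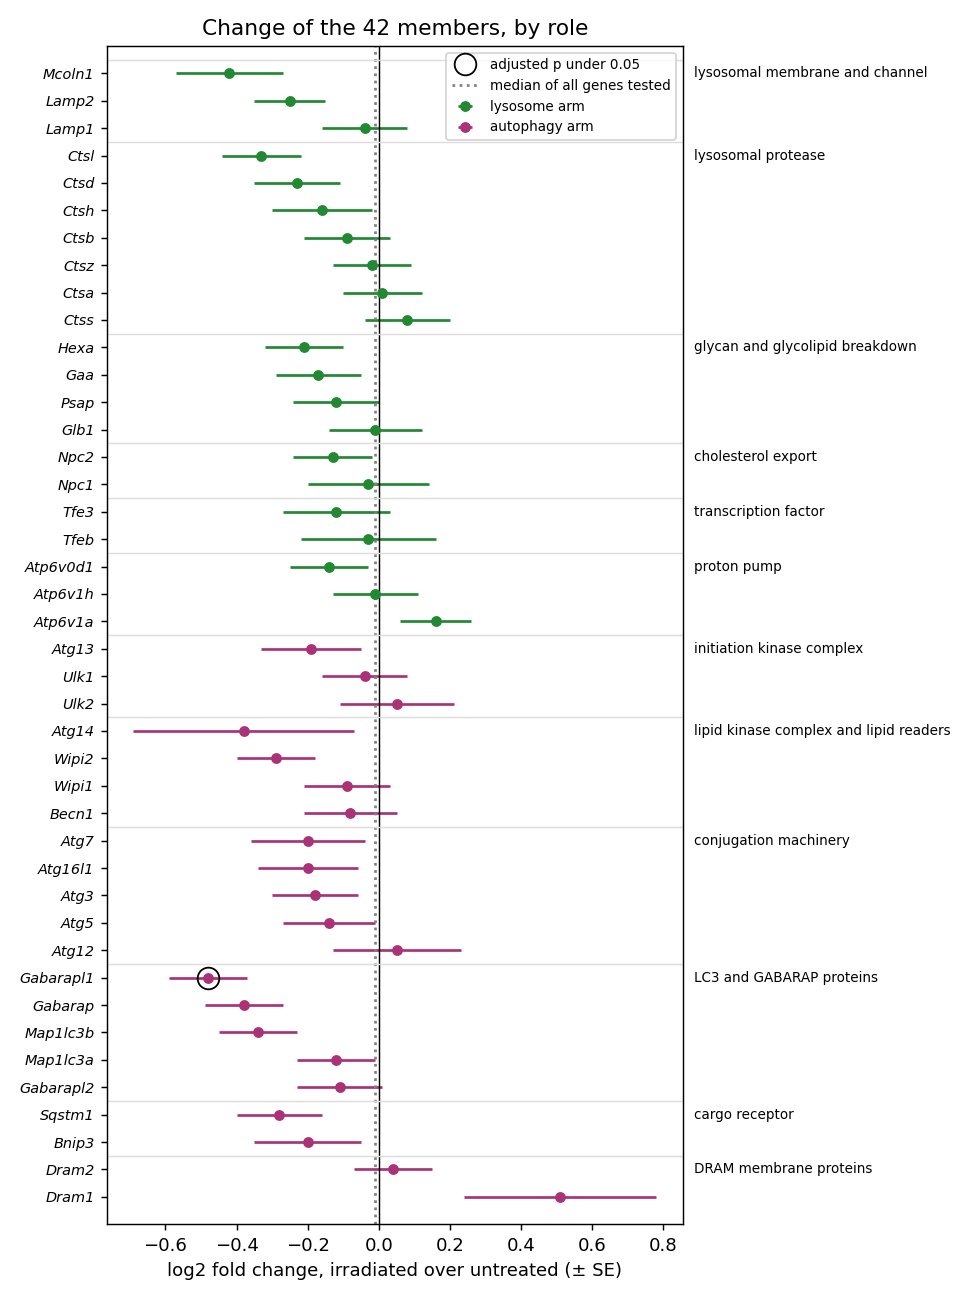
Log2 fold change of each member, irradiated over untreated, with its SE from edgeR; members are grouped by role, green for the lysosome arm and purple for the autophagy arm, and the dotted line is the median of all genes tested. The ringed point is Gabarapl1 at -0.48, the member past the threshold, and Dram1 at 0.51 has the highest value with a wide error.

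In the autophagy arm, the LC3 and GABARAP proteins are small ubiquitin-like proteins that are joined to lipid and so recruit cargo and membrane. Gabarapl1 (ENSMUSG00000030161; chromosome 6, 129533160 to 129542346, build mm10) stood at 34.6, 38.9 and 36.2 CPM in untreated and at 26.3, 26.2 and 26.2 CPM in irradiated libraries. The irradiated libraries were all lower, on 395, 218 and 303 counts. They were nearly equal with TMM factors, and at 27.3, 30.7 and 25.0 CPM without them, below the untreated 32.8 to 36.0 CPM. The means were 36.5 ± 2.20 and 26.2 ± 0.0708 CPM (SD, n = 3), and the log2 fold change of -0.48 (SE 0.11) passed, at an edgeR adjusted p = 0.0329. The call was kept in 3 of 14 alternative settings, and adjusted p values ranged from 0.0138 with no count filter to 0.168 with scaling by library totals; DESeq2 gave 0.0501. It was lost on leaving out untreated replicate 2 (0.140), untreated replicate 3 (0.0716), or irradiated replicate 1 (0.155), 2 (0.0558) or 3 (0.0739). The log2 fold change itself stayed between -0.52 and -0.33.

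The sequence just upstream of Gabarapl1 is shown as that of the member that fell. Its 300-base window held neither the CLEAR core nor the E-box, which says only that these letters are not there. The 218 bases before the annotated gene, chr6:129532942-129533159 on the plus strand, held the GC box GGGCGG, searched on both strands, at 1 place, in capitals. A GC box stood in the windows of 38.2% of all symbols, and of 14 of the 17 autophagy members with a window, 82.4%.
Gabarapl1: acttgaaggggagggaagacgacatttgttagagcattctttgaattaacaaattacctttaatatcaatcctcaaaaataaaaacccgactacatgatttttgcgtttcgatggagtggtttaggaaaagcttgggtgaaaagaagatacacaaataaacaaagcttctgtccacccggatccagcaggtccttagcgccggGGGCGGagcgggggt

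Gabarap, the family's founding member, stood at 139.6, 165.5 and 153.2 CPM in untreated and 121.9, 113.2 and 116.7 CPM in irradiated libraries, with a log2 fold change of -0.38 (SE 0.11; edgeR adjusted p = 0.103). The groups did not overlap. Map1lc3b, which encodes LC3B, the usual marker protein of autophagosomes, stood at 89.4, 97.8 and 85.3 CPM against 64.0, 71.3 and 80.2 CPM. Its groups did not overlap either, and its log2 fold change was -0.34 (SE 0.11; edgeR adjusted p = 0.138). Map1lc3a, the LC3A gene, and Gabarapl2, the third GABARAP gene, had log2 fold changes of -0.12 (SE 0.11) and -0.11 (SE 0.12). The family summed to 311.0, 347.1 and 318.3 CPM in untreated and 254.2, 250.7 and 266.6 CPM in irradiated libraries, without overlap. As a share of gene counts with no TMM factor the sum was 0.0296% to 0.0317% against 0.0255% to 0.0293%, also without overlap, by a narrow margin. All 5 were negative with TMM factors, while library totals alone put Map1lc3a at 0.02 and Gabarapl2 at 0.04, and the correction for transcript length and GC content put Map1lc3a at 0.10.

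**Figure D3:**
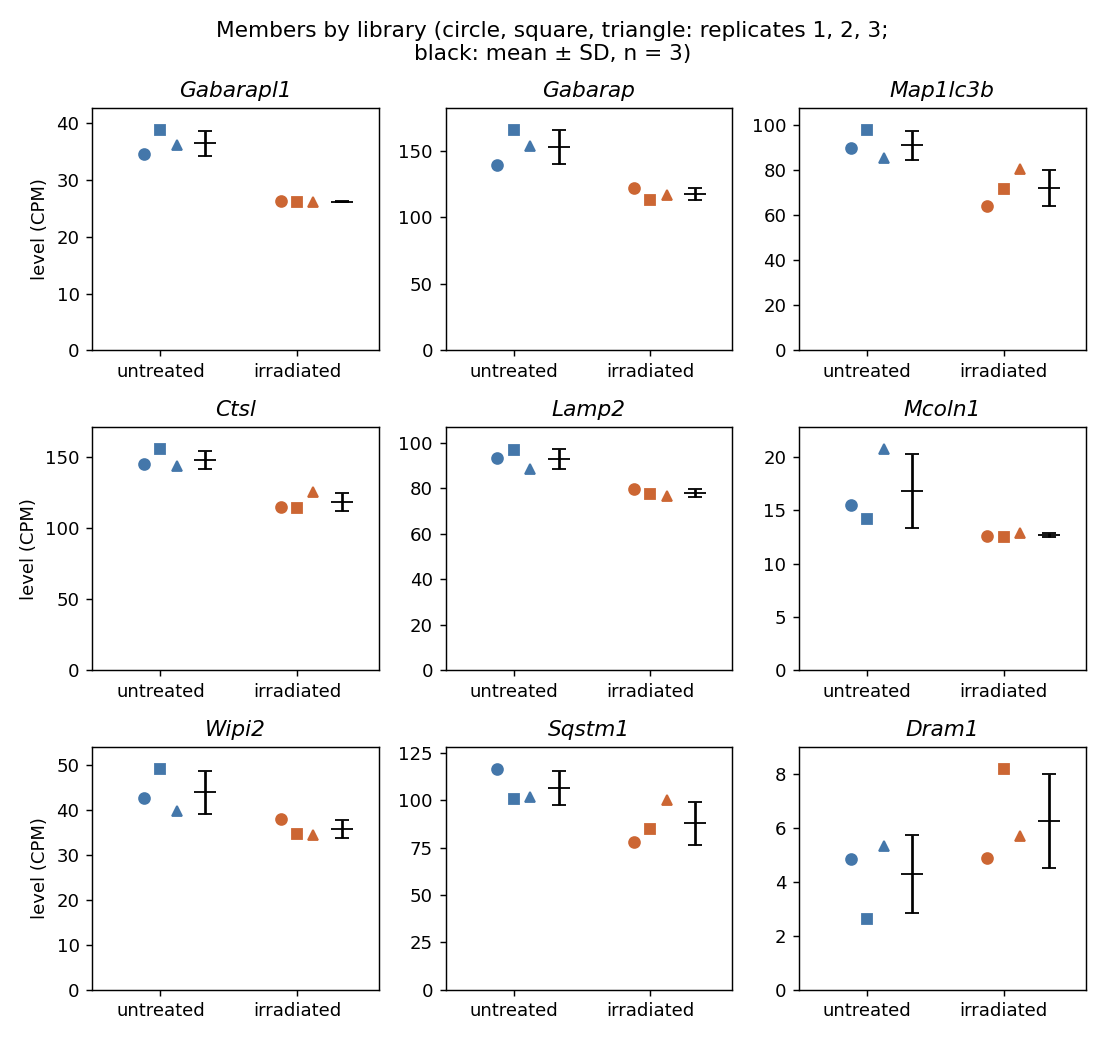
CPM of 9 members in every library, untreated in blue and irradiated in orange, with the group mean ± SD in black (n = 3); each axis starts at 0. With these TMM factors the groups are apart in the first 8 panels, by little for Map1lc3b, Mcoln1, Wipi2 and Sqstm1, and overlap for Dram1.

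The cargo receptors bind marked material and the LC3 proteins at once. Sqstm1, which encodes p62, stood at 116.7, 101.0 and 102.0 CPM in untreated and 78.0, 85.2 and 100.3 CPM in irradiated libraries. The highest irradiated library came close to the lowest untreated one, and the log2 fold change of -0.28 (SE 0.12) did not pass (edgeR adjusted p = 0.258). Bnip3, a receptor for mitochondria, had a log2 fold change of -0.20 (SE 0.15).

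Upstream of the conjugation step, the Ulk kinases start autophagy and the Becn1 and Atg14 complex makes the lipid that the Wipi proteins read. Wipi2 stood at 42.6, 49.0 and 39.8 CPM in untreated and 38.0, 34.6 and 34.4 CPM in irradiated libraries, a log2 fold change of -0.29 (SE 0.11; edgeR adjusted p = 0.213), with the groups just apart. Ulk1, Ulk2 and Atg13, the initiation genes, had log2 fold changes of -0.04, 0.05 and -0.19, and Becn1, Wipi1 and Atg14 of -0.08, -0.09 and -0.38. Atg14 rests on 24 to 74 counts per library, with an SE of 0.31, and its log2 fold change was -0.02 without untreated replicate 2 and -0.63 without irradiated replicate 3. None of these passed.

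The conjugation enzymes and their partners join the LC3 and GABARAP proteins to lipid. Atg3, Atg5, Atg7, Atg12 and Atg16l1 had log2 fold changes between -0.20 and 0.05, with Atg12 the positive one (Atg5 too with library totals alone), and 0 of 5 passed. Atg16l1, which places the conjugation on the membrane, was lower in each irradiated library, at 11.9 ± 0.099 against 13.6 ± 1.17 CPM (SD, n = 3), with a log2 fold change of -0.20 (SE 0.14). The irradiated libraries had 179, 99 and 136 counts. Without TMM factors they stood at 12.4, 13.9 and 11.2 CPM and overlapped the untreated 12.2 to 13.4 CPM.

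Both Dram genes, which encode membrane proteins of the lysosome that promote autophagy, were positive, except that Dram2 stood at -0.01 without untreated replicate 3. Dram1, a known p53 target, stood at 4.86, 2.62 and 5.34 CPM in untreated and 4.86, 8.18 and 5.70 CPM in irradiated libraries. The groups overlapped, on 30 to 80 counts per library, and the log2 fold change of 0.51 (SE 0.27) did not pass (edgeR adjusted p = 0.402). It was 0.26 without untreated replicate 2 and 0.29 without irradiated replicate 2. Dram2 had a log2 fold change of 0.04 (SE 0.11), from 25.4 ± 1.96 to 26.1 ± 0.433 CPM (SD, n = 3).

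In the lysosome arm, 0 of 21 members passed. Ctsl, the cysteine protease cathepsin L, stood at 145.2, 155.4 and 143.8 CPM in untreated and 114.4, 114.4 and 125.3 CPM in irradiated libraries. Its groups did not overlap, with 118.8 to 133.8 against 137.9 to 143.4 CPM when no TMM factor was used, and the log2 fold change was -0.33 (SE 0.11; edgeR adjusted p = 0.151). Ctsd, the aspartic protease cathepsin D, was also lower in every irradiated library, at 156.5 to 172.3 CPM against 175.4 to 204.4 CPM (log2 fold change -0.23, SE 0.12). The other 5 proteases, Ctsa, Ctsb, Ctsh, Ctss and Ctsz, had log2 fold changes from -0.16 to 0.08. Ctss, the cathepsin of antigen-presenting cells, stood at 17.0 ± 0.578 and 17.8 ± 1.04 CPM (SD, n = 3).

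Lamp2, a heavily glycosylated protein of the lysosomal membrane, stood at 93.2, 97.1 and 88.6 CPM in untreated and 79.8, 77.7 and 76.7 CPM in irradiated libraries. The groups were apart, with a log2 fold change of -0.25 (SE 0.10; edgeR adjusted p = 0.227). Lamp1, its close relative, had a log2 fold change of -0.04 (SE 0.12). Mcoln1, the calcium channel that activates Tfeb through calcineurin, stood at 15.6, 14.2 and 20.7 CPM in untreated and 12.6, 12.5 and 12.9 CPM in irradiated libraries. The log2 fold change was -0.42 (SE 0.15; edgeR adjusted p = 0.185), and -0.23 without untreated replicate 3, the high one. The groups did not overlap with TMM factors, but did without them, at 12.7 to 20.7 against 12.3 to 14.6 CPM.

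The genes of glycan and glycolipid breakdown had log2 fold changes of -0.21 for Hexa, -0.17 for Gaa, -0.12 for Psap and -0.01 for Glb1. Hexa, a subunit of hexosaminidase, was lower in each irradiated library, at 24.5 to 27.2 against 27.6 to 32.8 CPM. Npc1 and Npc2, which pass cholesterol out of the lysosome, stood at -0.03 and -0.13. With library totals alone Glb1, Psap, Npc1 and Npc2 were positive. The transcription factors stood at -0.03 (SE 0.19) for Tfeb and -0.12 (SE 0.15) for Tfe3, also positive with library totals, and Tfeb went from 8.66 ± 2.04 to 8.43 ± 0.451 CPM (SD, n = 3).

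The V-ATPase subunits of the proton pump differed in sign with TMM factors, while all 3 were positive with library totals alone. Atp6v1a, the catalytic subunit, stood at 40.6, 41.1 and 40.2 CPM in untreated and 43.8, 46.3 and 45.8 CPM in irradiated libraries, higher in each, with a log2 fold change of 0.16 (SE 0.10) that did not pass. Atp6v0d1 and Atp6v1h stood at -0.14 (SE 0.11) and -0.01 (SE 0.12). The 6 members with a CLEAR core had log2 fold changes from -0.42, for Mcoln1, to 0.16, for Atp6v1a, with a median of -0.16, beside a median of -0.14 in the 28 members whose windows lack it.

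By arm, the log2 fold changes had medians of -0.12 (lysosome) and -0.18 (autophagy), beside -0.01 for all genes tested. The lysosome arm summed to 1613, 1710 and 1714 CPM in untreated and 1549, 1458 and 1603 CPM in irradiated libraries. The autophagy arm summed to 720.0, 747.9 and 699.4 CPM in untreated and 605.6, 594.6 and 635.1 CPM in irradiated libraries. Both sums were lower in each irradiated library, by a narrow margin for the lysosome arm. Such sums are weighted towards the abundant members, while the medians count each member alike. As a share of gene counts with no TMM factor the groups overlapped: 0.153% to 0.171% in untreated against 0.153% to 0.170% in irradiated libraries for the lysosome arm, and 0.0672% to 0.0697% against 0.0607% to 0.0696% for the autophagy arm. Irradiated replicate 2, the shallowest library, had the largest TMM factor, 1.1737, against 0.90033 to 1.0408, and without it the medians were -0.08 and -0.09.

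**Figure D4:**
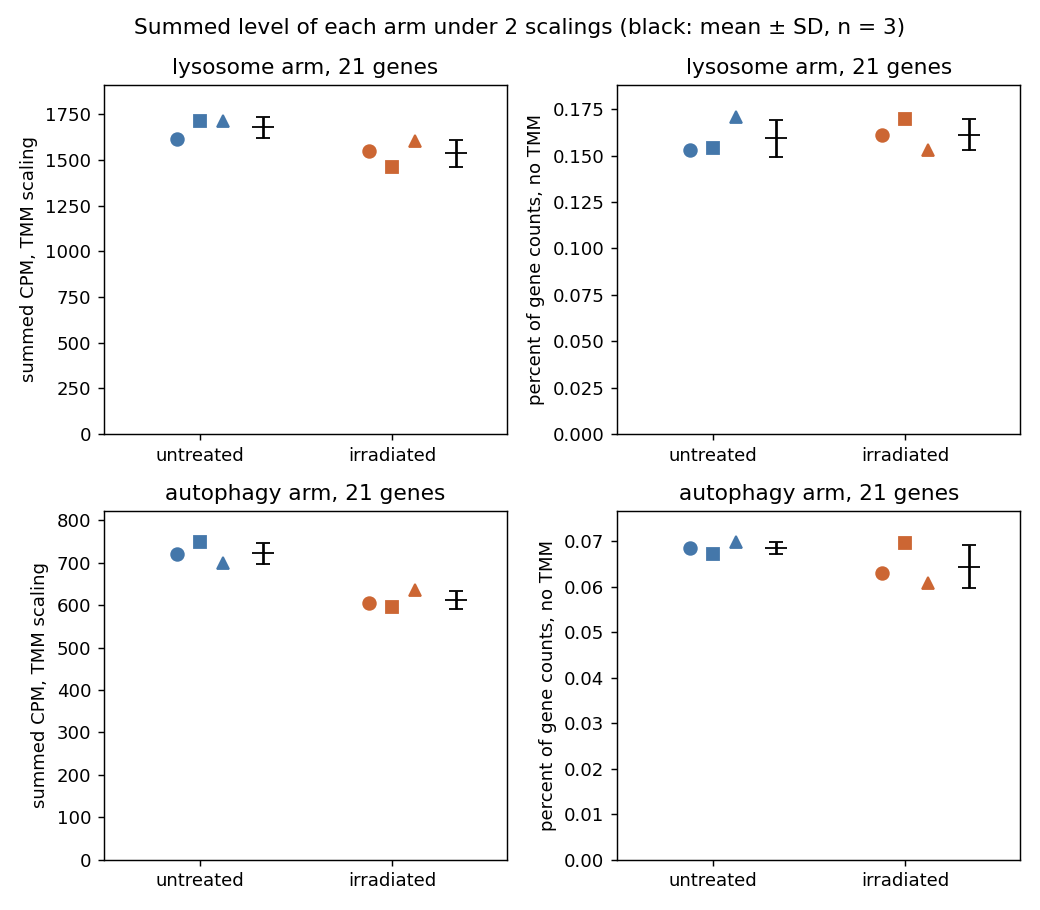
Summed level of the 21 genes of each arm in every library, in CPM with TMM factors on the left and as a percent of gene counts without them on the right, with the group mean ± SD in black (n = 3) and axes from 0. On the left both arms are lower in each irradiated library, while on the right the groups overlap. There the irradiated libraries of the lysosome arm lie within the untreated range or at its low end. In the autophagy arm only irradiated replicate 2 (orange square) lies among the untreated ones.

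Markers of other cell types were read in the same libraries. Of 10 duct and myoepithelial markers 0 passed, with all 10 negative with TMM factors, and they summed to 338.6 to 393.4 CPM in untreated and 233.1 to 305.6 CPM in irradiated libraries. Of 10 T cell markers 2 rose, with sums of 1.92 to 16.1 against 37.0 to 50.6 CPM. Of 8 B cell markers, 7 of them tested, 1 rose, with sums of 0.525 to 18.4 against 35.0 to 36.6 CPM. All 10 T cell and all 7 tested B cell markers were positive with TMM factors, with median log2 fold changes of 1.76 and 1.95. Both lowest sums were those of untreated replicate 2. The other untreated libraries stood at 16.1 and 16.0 CPM for T cell and 18.4 and 10.3 CPM for B cell markers. The 19 macrophage and dendritic cell markers summed to 180.2 to 215.9 against 208.4 to 209.9 CPM, with 0 of 16 tested past the threshold, 7 of them positive and 9 negative. Of 13 stromal markers 0 passed, with overlapping sums. Of the 10 acinar markers 1 fell. With TMM factors 8 of these 10 were negative, with a median log2 fold change of -0.21, while their sums overlapped. No marker of these lists was at 0 in every library. Their part in the values of the lysosome and autophagy genes was not tested.

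Shorter transcripts had lower fold changes across all genes: with all genes cut into 5 groups of equal size by length, the medians from the shortest group, up to 1820 bases, to the longest were -0.17, -0.06, 0.00, 0.04 and 0.10. The members in these groups, 8, 11, 10, 9 and 4 of them, had medians of -0.13, -0.14, -0.18, -0.08 and -0.08. Those in the shortest group, Gabarapl1 and Gabarap among them, were thus not below all genes of that length by their median. Once length and GC content were corrected for, Gabarapl1 stood at -0.38 (edgeR adjusted p = 0.106), Gabarap at -0.25, Map1lc3b at -0.37 and Ctsl at -0.45, and 0 members passed. Length here is that of the longest annotated transcript, 6168 bases for Ctsl and 4138 for Map1lc3b. Their principal transcripts, used for the levels per kb, have 1971 and 2532 bases, so their corrected values depend on the length chosen.

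**Figure D5:**
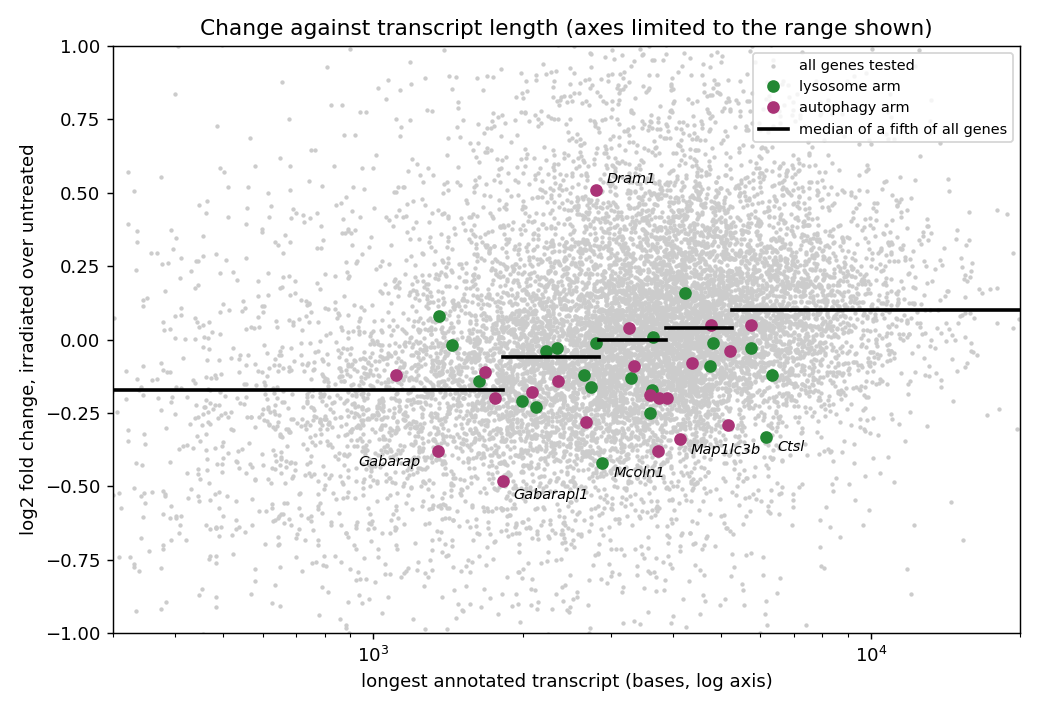
Log2 fold change, irradiated over untreated, against the longest annotated transcript in bases on a log axis, for all genes tested in grey and the members in colour; black lines are the medians of the 5 length groups. Gabarap, Gabarapl1, Mcoln1, Map1lc3b and Ctsl lie below the median line at their length and Dram1 above.

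In 9 members over 15% of the 50-base stretches of the longest transcript also occur in transcripts of another annotated gene. Among them are Gabarapl1, Ctsd, Ctsl, Becn1, Sqstm1 and Bnip3. Of the members 15 overlap exons on the opposite strand, and 3, Ctsd, Ctsl and Glb1, overlap exons on the same strand. The setting of strand in the counting is not given, so reads in the opposite-strand overlaps cannot be assigned with certainty. Reads in the same-strand overlaps cannot be told apart by strand. For Gabarapl1 the shared stretch is that with 1700101I11Rik on the opposite strand, which had 0 or 1 counts in each library. Reads in the overlap may have been set aside as ambiguous, as 8.22% to 9.83% of all reads were. That low count thus does not show how many reads fall there.

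The other genes of these pathways were read from 6 lists of 151 genes, of which 146 were tested: 1 rose, 1 fell and 144 did not pass, and 55.5% had a negative fold change, against 83.3% of the members. Of the 16 other V-ATPase subunits 1 fell, Atp6v0b, a subunit of the membrane ring, at 39.4 ± 1.64 CPM in untreated and 28.3 ± 1.92 CPM in irradiated libraries (SD, n = 3), with a log2 fold change of -0.48 (SE 0.11; edgeR adjusted p = 0.0346). That call was lost in 10 of 14 alternative settings, among them each set without 1 untreated library and those without irradiated replicate 1 or 2, with adjusted p values from 0.0139 to 0.320. Of 24 tested genes for other lysosomal membrane and sorting proteins 1 rose, Laptm5, a lysosomal protein of blood cells, standing at 14.7 ± 2.05 CPM in untreated and 27.0 ± 0.579 CPM in irradiated libraries (SD, n = 3; log2 fold change 0.87, SE 0.13; edgeR adjusted p = 0.00116). It was called in all 14 alternatives. Ptprc, which encodes the leukocyte antigen CD45, stood at 13.0 ± 5.38 and 32.2 ± 2.86 CPM (SD, n = 3) and did not pass (edgeR adjusted p = 0.193), and its part in the Laptm5 value was not tested. Its untreated libraries stood at 16.1, 6.82 and 16.1 CPM, with replicate 2 the low one.

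Of 37 other hydrolases 0 passed, with a median of -0.01. Lgmn, the protease legumain, stood at -0.24 (SE 0.13; edgeR adjusted p = 0.415). Of 28 tested core autophagy genes 0 passed, with a median of 0.03 with TMM factors, 18 of them positive and 10 negative. Atg101, a partner of Atg13, stood at -0.49 (SE 0.23; edgeR adjusted p = 0.327). Vamp8, a fusion protein of the autophagosome and lysosome, stood at -0.90 (SE 0.45; edgeR adjusted p = 0.354), on 7 to 35 counts per library. Of 15 tested cargo receptors 0 passed. Bcl2l13, a mitochondrial receptor, stood at 0.49 (edgeR adjusted p = 0.0660) and Pink1, the kinase that marks damaged mitochondria, at -0.33 (edgeR adjusted p = 0.130), each without overlap between the groups. Of 26 tested genes of nutrient sensing through mTORC1, the kinase complex that holds Tfeb in the cytoplasm, 0 passed. Flcn, a regulator of that step, stood at -0.45 (edgeR adjusted p = 0.105) and Lamtor2, a part of its lysosomal anchor, at -0.30 (edgeR adjusted p = 0.240).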

How the data were processed

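The authors deposited 1 table of raw read counts by Ensembl gene for each of the 6 libraries. Per the submitters' processing notes bcl2fastq, HISAT2, HTSeq and the build mm10 were used; versions, annotation release and strand setting are not given in the sources used here. Rows naming no gene (32.4% to 40.7% of reads) were left out. Of 52636 genes, 52489 matched a symbol in GENCODE M21 (GRCm38, which is mm10), the source of coordinates and lengths. Groups follow the treatment label. Counts were tested with edgeR 4.0.16 in R 4.3.3 (quasi-likelihood, robust shrinkage, TMM, filterByExpr with minimum count 10, Benjamini-Hochberg over 12885 genes, threshold 0.05), and the procedure was tested on simulated data. DESeq2 1.42.0, limma 3.58.1, other scalings and filters, a replicate block, a length and GC correction and each library left out were alternatives. The members and lists were chosen with earlier results of these data known. All members are named; from each other list, genes past the threshold, or else those with the smallest 2 p-values; 1 of these is not reported here. CPM use TMM factors. Principal transcripts were taken by APPRIS level, support level and length. A library of 7108359 to 15036193 counts gave members between 24 and 5197 counts.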

Additional observations from a re-analysis of the deposited data

How the results depend on the processing

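The number of members called lower, 1 by the reported fit, was 0 with library totals alone, edgeR without robust shrinkage, DESeq2, limma-voom, the replicate block and the length and GC correction, and 0 to 1 on leaving out 1 library. It stayed at 1 with DESeq2 size factors and with no count filter, and 0 members were called higher in any setting. Of all genes, 84 were called higher and 45 lower. These counts were 260 and 22 with library totals alone, 279 and 239 with no count filter, 21 and 5 without robust shrinkage, 20 and 5 with limma-voom, and 39 and 14 with the replicate block. The count of lower genes was 70 with DESeq2 and 29 with the length and GC correction, and leaving out 1 library gave 31 to 83 higher and 14 to 72 lower. The lysosome median of -0.12 was 0.03 with library totals alone and the autophagy median of -0.18 was -0.04, where the median of all genes was 0.14. Leaving out 1 library gave -0.13 to -0.08 for the lysosome and -0.19 to -0.09 for the autophagy arm. Of the 42 members 21 changed sign in at least 1 of 14 alternatives, all of them with a log2 fold change of at most 0.14 in size; the cause was not tested. The count of members without overlap between the groups, 12 lower and 1 higher, was 4 and 3 with library totals alone. For libraries of equal replicate number, deviations from the group means correlated at 0.0199, -0.111 and -0.107, and for unequal numbers at -0.0307 to 0.122. With 3 libraries per group these values cannot show whether the libraries were paired. Irradiated replicate 2 gives the shallowest values, and 7 members had under 100 counts in a library.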
